A study of Rattus norvegicus with 27 samples.

Results

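The 34 genes described here encode the enzymes, transporters and regulators that carry glucose through glycolysis, turn pyruvate into lactate or pass it to the mitochondrion, and run the main steps of the pentose phosphate pathway. They were taken by name from a table of 17315 genes measured by RNA sequencing of cultured rat Schwann cells, the glia that ensheathe peripheral axons. The cells were bought as primary rat cells, used at passages 3 to 5, and given a day in complete medium and a night in low serum. The 3 groups were undifferentiated cells, which never received dibutyryl cyclic AMP (dbcAMP, a membrane-permeant analogue of cyclic AMP), differentiated cells, which received 1 mM dbcAMP for 72 h in DMEM with 1% exosome-depleted serum, and dedifferentiated cells. The last group had the same treatment and then 72 h without dbcAMP in a complete medium with 10% exosome-depleted serum, neuregulin 1-β1 and forskolin, an activator of adenylyl cyclase. Each group held 3 replicates. The medium of the undifferentiated cells during these days is not spelled out beyond the absence of dbcAMP, so stage and medium changed together and cannot be told apart. All values come from cultured cells without axons.

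Glycolysis splits glucose into pyruvate in the cytosol. Pyruvate is either reduced to lactate by lactate dehydrogenase and exported through monocarboxylate transporters, or oxidised by the mitochondrial pyruvate dehydrogenase complex, which its kinases switch off. The pentose phosphate pathway branches from glucose 6-phosphate and supplies NADPH for lipid synthesis and ribose for nucleotides. In peripheral nerve, Schwann cells are known to take up glucose and to export lactate that axons can use, and myelin formation needs much carbon and NADPH for lipids.

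The 9 libraries held 10058735 to 16212278 estimated counts, so that 3 counts stood for 0.185 to 0.298 CPM (counts per 1000000 counts of a library). All 9 Schwann cell markers measured were above 3 counts in every library, with a summed level of 8708 to 9735 CPM in undifferentiated, 8940.1 to 11771 CPM in differentiated and 19652 to 22382 CPM in dedifferentiated libraries. The fibroblast list summed to 24403 to 29129 CPM in undifferentiated, 12013 to 15678 CPM in differentiated and 16039 to 19578 CPM in dedifferentiated libraries, almost all of it from Col1a1 and Col1a2, whereas Dcn, Pdgfra and Fap stayed under 1 CPM and Lum was at 0. The leukocyte list summed to at most 5.17 CPM, with Aif1 and Adgre1 at 0. The endothelial list summed to 1.21 to 3.36, 6.78 to 9.11 and 12.1 to 22.6 CPM in the 3 stages in order. Most of it was Tek and Vwf, and Cdh5 was at 0. The pericyte and smooth muscle list summed to 124 to 154 CPM in undifferentiated, 542 to 810 CPM in differentiated and 323 to 346 CPM in dedifferentiated libraries, nearly all of it Pdgfrb, with Rgs5 and Kcnj8 at 0. The neuron list summed to 190 to 516 CPM in undifferentiated, 1433 to 1939 CPM in differentiated and 354 to 462 CPM in dedifferentiated libraries through the neurofilament genes Nefl and Nefm, with Rbfox3 and Snap25 at or near 0. The perineurial list summed to 132 to 178 CPM in undifferentiated, 233 to 333 CPM in differentiated and 279 to 352 CPM in dedifferentiated libraries, with Lypd2 at 0 and Cldn1 near 0. Nearly all of it came from Itgb4 and Slc2a1, and Slc2a1 is itself a member of the genes described here. Markers of dividing cells moved with stage: 6 genes summed to 2.42 to 42.6 CPM in undifferentiated, 75.4 to 231 CPM in differentiated and 32.98 to 54.2 CPM in dedifferentiated libraries. The part of these lists in the results below was not tested. In such bulk libraries, fewer cells of a type and less RNA per cell cannot be told apart.

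Pfkm, Eno2, Ldhb and Slc16a1 were several-fold higher under dbcAMP than in undifferentiated cells and fell back in part after its withdrawal, whereas Pdk2 and Pfkfb4 were lower under dbcAMP and rose after it. The part of all counts that fell on the 34 genes was 0.539% to 0.624% in undifferentiated, 0.756% to 0.822% in differentiated and 0.630% to 0.731% in dedifferentiated libraries. Of the 34 genes, 33 had enough counts to be tested. The lactate exporter gene Slc16a3 did not. On differentiation 13 members rose and 5 fell at an edgeR adjusted p under 0.05, which is 54.5% of those tested, beside 59.6% of all 10372 genes tested (31.7% higher and 27.9% lower). Of the 15 genes from hexokinase to pyruvate kinase, 8 rose and 2 fell. On dedifferentiation 5 rose and 9 fell relative to the differentiated stage, 42.4% beside a background of 46.4% (23.2% higher and 23.2% lower), and 6 of the 15 fell. Compared with undifferentiated cells, dedifferentiated cells had 10 members higher and 3 lower, 39.4% beside a background of 29.4% (16.1% higher and 13.3% lower). With a log2 change beyond 1 as well, 6 members were higher (Pfkm, Eno2, Ldhb, Slc16a1, Tkt and Aldoc) and 2 lower (Pdk2 and Pfkfb4) on differentiation, beside 13.5% and 11.3% of all genes. On dedifferentiation Pdk2 passed upwards and Slc16a1 downwards (background 8.3% and 7.24%), and between the outer stages Pfkm, Eno2, Taldo1, Ldhb and Tkt were higher (background 6.48% higher and 3.09% lower). The count of 5 higher members on dedifferentiation was 2 without differentiated replicate 2 or 3 or dedifferentiated replicate 2 or 3. The count of 3 lower members between the outer stages was 0 without undifferentiated replicate 1 and 1 without undifferentiated replicate 3 or dedifferentiated replicate 2. The median log2 change of the tested members was 0.13, -0.07 and 0.12 in these 3 comparisons in order, beside 0.05, -0.01 and 0.02 over all genes tested. Every pair of comparisons shares a stage, so the 3 sets of values are given side by side and are not independent.

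Of the 33 tested members, called or not, 13 lay wholly higher and 5 wholly lower on differentiation, without overlap of libraries (38.9% and 27.4% of all genes tested). On dedifferentiation these were 3 and 10 (background 28.3% and 30.2%). Between the outer stages they were 14 and 3 (background 26.8% and 17.1%). Among called members, whose calls rest on the same libraries, none overlapped on differentiation (18 members) or between the outer stages (13). On dedifferentiation 3 of the 5 higher members and all 9 lower members did not overlap. The matching share among all called genes was not computed, so these counts of called members describe no trait particular to them. The labels place replicate 3 of every stage in another sequencing project than replicates 1 and 2. With replicates 1 and 2 alone, all called members kept their direction, and 16 of 18, 7 of 14 and 7 of 13 stayed called in the 3 comparisons in order. Over all genes, 2606 were then called in place of 4809 on dedifferentiation, and 1283 in place of 3045 between the outer stages. The other project holds 1 library per stage and allows no test. Each called member differed there in CPM in the direction of its call. The libraries of both projects were part of the fit that made the calls, so neither the kept directions nor these differences are separate evidence.

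**Figure D1:**
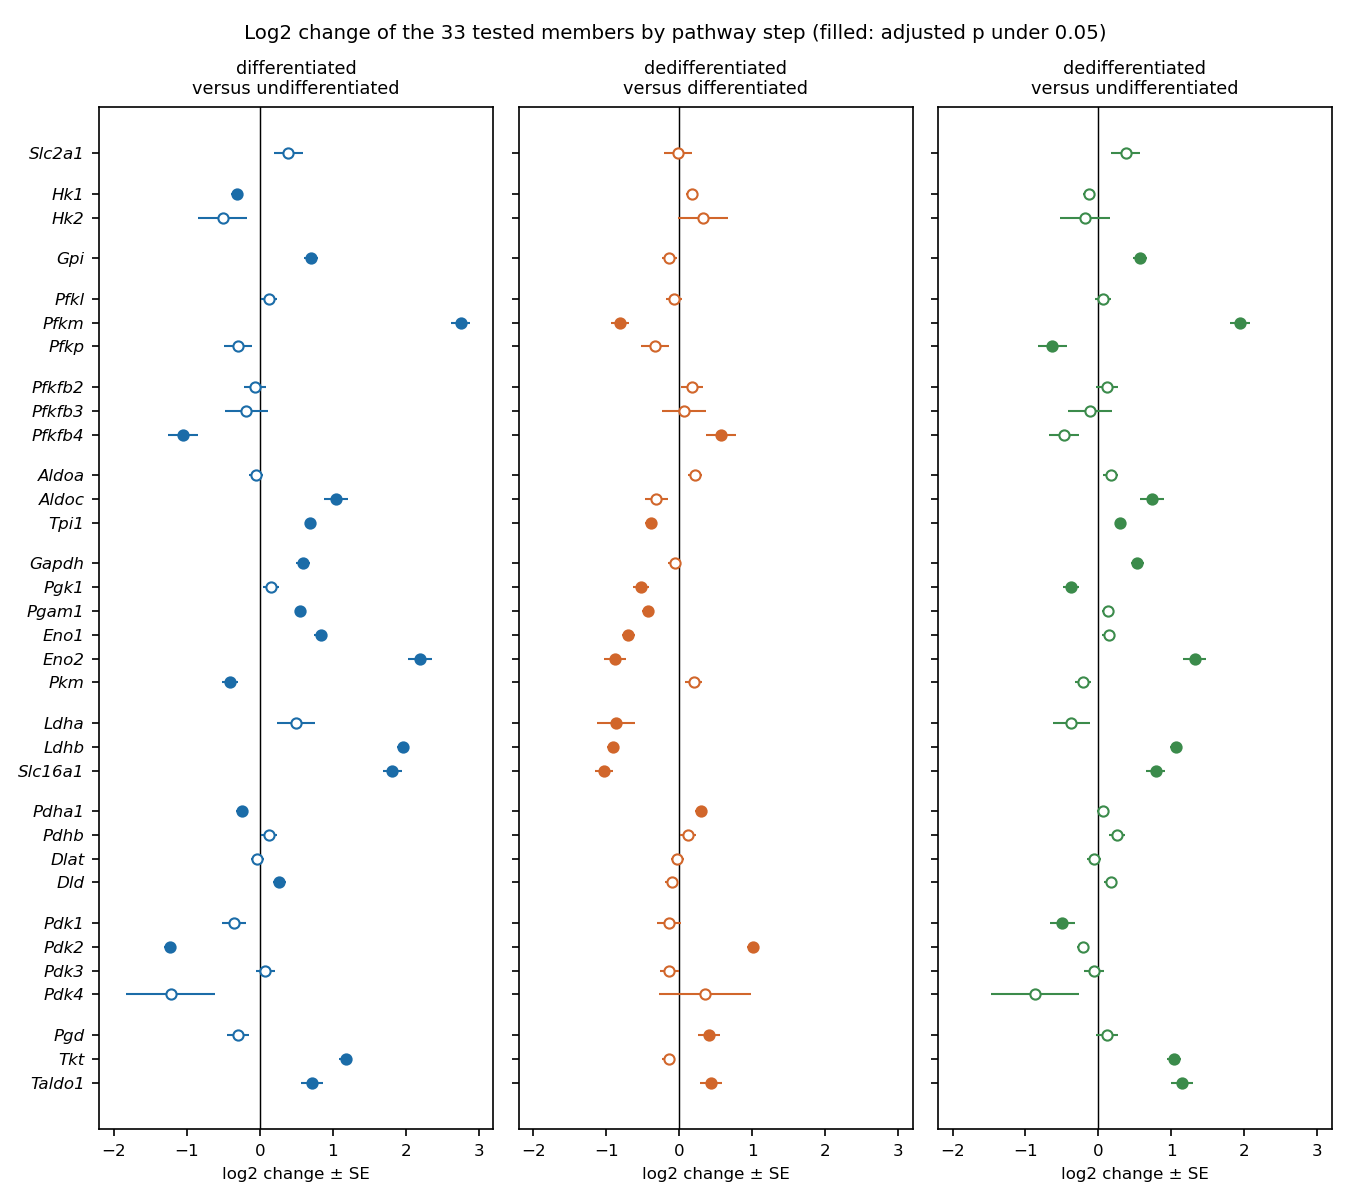
Log2 change (horizontal axis, ± SE) of the 33 tested members in the 3 comparisons, one panel each, ordered by pathway step from glucose uptake at the top to the pentose phosphate pathway at the bottom. Filled points have an adjusted p under 0.05. Pfkm, Eno2, Ldhb and Slc16a1 lie farthest to the right in the first panel, at 2.75, 2.19, 1.96 and 1.82, and left of zero in the second.

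At the entry of glycolysis the isomerase gene Gpi rose, Hk1 fell slightly, and the transporter gene Slc2a1 and Hk2 passed no test. The glucose transporter gene Slc2a1 averaged 29.4 ± 6.09, 40.3 ± 10.6 and 39.6 ± 0.349 CPM in the 3 stages in order (mean ± SD, n = 3 libraries each, here and below). Its log2 change on differentiation was 0.39 (SE 0.20, adjusted p = 0.11) and did not pass the test, with adjusted p of 0.02 without undifferentiated replicate 1 and 0.043 without differentiated replicate 2. Dedifferentiated against undifferentiated cells gave 0.37 (adjusted p = 0.18), with an adjusted p of 0.047 without undifferentiated replicate 1. Hk1, the brain-type hexokinase that traps glucose as glucose 6-phosphate, fell on differentiation from 188 ± 7.06 to 158 ± 7.13 CPM, a log2 change of -0.31 (SE 0.08, adjusted p = 0.0056). Its rise to 177 ± 12.8 CPM after withdrawal had an adjusted p of 0.088, and of 0.025 without dedifferentiated replicate 1. Hk2, the insulin-regulated hexokinase of muscle, read 38.4, 19.9 and 16.2 CPM in the undifferentiated libraries, 25.0, 11.0 and 18.6 CPM in the differentiated libraries and 22.8, 21.5 and 23.9 CPM in the dedifferentiated libraries. Replicate 1 of the undifferentiated stage was the highest of all 9, the stages overlapped, and no comparison passed the test (adjusted p 0.22 to 0.73). Gpi, which converts glucose 6-phosphate to fructose 6-phosphate, rose from 154 ± 6.47 to 261 ± 28.3 CPM (log2 change 0.70 (SE 0.10, adjusted p = 0.00012)). It then read 236 ± 15.4 CPM, with a log2 change of -0.13 (adjusted p = 0.29) from the differentiated and 0.57 (adjusted p = 0.0015) from the undifferentiated stage.

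Of the subunit genes of phosphofructokinase, the committed step of glycolysis, the muscle-type one rose on differentiation. Pfkm, the muscle-type subunit, read 15.1, 15.2 and 15.2 CPM in the undifferentiated libraries, 107, 104 and 110 CPM in the differentiated libraries and 73.8, 54.6 and 52.3 CPM in the dedifferentiated libraries, with replicates 1, 2 and 3 in order here and below. The differentiated libraries were all above the dedifferentiated ones, which were all above the undifferentiated ones. Its log2 change was 2.75 (SE 0.13, adjusted p = 5.3e-08) on differentiation, -0.81 (SE 0.12, adjusted p = 0.00035) on dedifferentiation and 1.94 (SE 0.13, adjusted p = 3.7e-06) between the outer stages. The liver-type subunit Pfkl stayed between 55.2 and 81.8 CPM in all 9 libraries, and none of its 3 comparisons passed the test. Pfkp, the platelet-type subunit, averaged 24.8 ± 2.27, 21.0 ± 2.52 and 16.6 ± 4.75 CPM. It did not pass the test in either successive step (log2 changes -0.30 and -0.33), while dedifferentiated cells were below undifferentiated ones by a log2 change of -0.63 (SE 0.20, adjusted p = 0.033). That call was lost, with adjusted p of 0.091 without undifferentiated replicate 1, 0.053 without undifferentiated replicate 2 and 0.052 without undifferentiated replicate 3.

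The PFKFB genes encode enzymes that make and break fructose 2,6-bisphosphate, the strongest activator of phosphofructokinase. Pfkfb4 read 58.3, 43.8 and 61.8 CPM in the undifferentiated libraries, 35.4, 19.1 and 27.9 CPM in the differentiated libraries and 40.4, 36.5 and 45.4 CPM in the dedifferentiated libraries. Every differentiated library was below every undifferentiated and every dedifferentiated one. Pfkfb4 fell on differentiation (log2 change -1.05 (SE 0.20, adjusted p = 0.0012)) and rose again after withdrawal by 0.58 (SE 0.21, adjusted p = 0.041). The second call was lost when 1 of 5 libraries was left out, with adjusted p of 0.11 without differentiated replicate 2, 0.09 without differentiated replicate 3, 0.072 without dedifferentiated replicate 1, 0.053 without dedifferentiated replicate 2 and 0.12 without dedifferentiated replicate 3. Pfkfb2 lay between 17.1 and 25.2 CPM and Pfkfb3 between 5.96 and 12.4 CPM in the 9 libraries, and neither passed the test in any comparison.

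Aldolase cleaves fructose 1,6-bisphosphate into the triose phosphates that triose phosphate isomerase interconverts. The brain-type aldolase gene Aldoc read 13.1, 18.6 and 16.9 CPM in the undifferentiated libraries, 30.5, 35.0 and 38.9 CPM in the differentiated libraries and 22.8, 26.5 and 33.9 CPM in the dedifferentiated libraries. All differentiated and all dedifferentiated libraries exceeded the undifferentiated ones, and the 2 treated stages overlapped. Aldoc rose on differentiation (log2 change 1.05 (SE 0.17, adjusted p = 0.00029)) and remained higher in dedifferentiated than in undifferentiated cells (0.73 (SE 0.17, adjusted p = 0.0077)). Between these stages it gave -0.31 (adjusted p = 0.14), and an adjusted p of 0.047 without dedifferentiated replicate 3. Aldoa, the most widely expressed aldolase, averaged 813 ± 24.0, 820 ± 79.4 and 946 ± 103 CPM and passed no test, though its log2 change of 0.22 (adjusted p = 0.1) on dedifferentiation had an adjusted p of 0.021 without dedifferentiated replicate 1. Tpi1 rose from 161 ± 0.237 to 271 ± 11.9 CPM (log2 change 0.69 (SE 0.07, adjusted p = 1.2e-05)) and fell to 205 ± 11.6 CPM (-0.39 (SE 0.07, adjusted p = 0.0011)). It stayed above the undifferentiated level (0.30 (adjusted p = 0.0096), with an adjusted p of 0.054 without dedifferentiated replicate 2).

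Lower glycolysis yields ATP and pyruvate, and 4 of its 6 genes rose on differentiation (31.7% of all genes did) and 4 fell on dedifferentiation (23.2% of all genes). Eno2, the neuron-type enolase, read 55.9, 64.8 and 53.8 CPM in the undifferentiated libraries, 342, 250 and 239 CPM in the differentiated libraries and 172, 144 and 134 CPM in the dedifferentiated libraries. The 3 stages did not overlap, and the order was differentiated, dedifferentiated, undifferentiated from high to low. Its log2 change was 2.19 (SE 0.16, adjusted p = 1e-06) on differentiation, -0.88 (SE 0.16, adjusted p = 0.001) on dedifferentiation and 1.32 (SE 0.16, adjusted p = 0.00015) between the outer stages. The ubiquitous enolase Eno1 rose less, from 284 ± 8.65 to 528 ± 47.7 CPM (log2 change 0.83 (SE 0.09, adjusted p = 2e-05)), and returned to 324 ± 25.1 CPM (-0.69 (SE 0.09, adjusted p = 0.00014)). Against undifferentiated cells it then gave 0.14 (adjusted p = 0.28). The phosphoglycerate mutase gene Pgam1 followed with log2 changes of 0.56 (adjusted p = 0.00013) and -0.43 (adjusted p = 0.0014).

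Gapdh, the glyceraldehyde 3-phosphate dehydrogenase often used as a reference gene, was not stable across the stages. It rose from 618 ± 26.4 to 975 ± 73.0 CPM (log2 change 0.59 (SE 0.09, adjusted p = 0.00022)) and was 926 ± 40.4 CPM after withdrawal, still above the undifferentiated stage (0.53 (SE 0.09, adjusted p = 0.0014)). Pgk1, the phosphoglycerate kinase that makes the first ATP, gave 0.15 (adjusted p = 0.27) on differentiation, with an adjusted p of 0.035 without undifferentiated replicate 1. It fell on dedifferentiation from 228 ± 23.4 to 157 ± 10.5 CPM (-0.52 (SE 0.11, adjusted p = 0.003)) and ended below the undifferentiated level of 197 ± 24.4 CPM (-0.37 (adjusted p = 0.027)). That last call was lost with adjusted p of 0.081 without undifferentiated replicate 1, 0.059 without dedifferentiated replicate 1 and 0.059 without dedifferentiated replicate 2. Pkm, the pyruvate kinase that closes the pathway, was the 1 gene of lower glycolysis that fell on differentiation, from 423 ± 33.02 to 333 ± 38.0 CPM (-0.41 (SE 0.11, adjusted p = 0.0094)). It was 379 ± 42.4 CPM after withdrawal (0.20 (adjusted p = 0.17), with an adjusted p of 0.0495 without dedifferentiated replicate 1). The gene totals do not separate its M1 and M2 splice forms. Gapdh, Aldoa, Pgk1, Eno1 and Ldha have processed pseudogenes, and how reads were shared with such copies is not given in the sources used here, so their levels are less certain.

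The lactate genes Ldhb and Slc16a1 ranked the 3 stages in the same order as Pfkm and Eno2. Ldhb, the lactate dehydrogenase subunit that favours lactate oxidation, read 63.3, 69.7 and 73.2 CPM in the undifferentiated libraries, 292, 287 and 257 CPM in the differentiated libraries and 144, 149 and 151 CPM in the dedifferentiated libraries. Its differentiated libraries were the highest and its undifferentiated ones the lowest, and the dedifferentiated libraries lay between with no overlap. The log2 change was 1.96 (SE 0.08, adjusted p = 1.6e-08) on differentiation, -0.90 (SE 0.08, adjusted p = 7.8e-06) on dedifferentiation and 1.06 (SE 0.08, adjusted p = 6.9e-06) between the outer stages. Slc16a1, which encodes the monocarboxylate transporter MCT1 that moves lactate and pyruvate across the membrane, read 21.7, 17.7 and 15.8 CPM in the undifferentiated libraries, 67.9, 65.8 and 69.2 CPM in the differentiated libraries and 35.2, 30.6 and 32.5 CPM in the dedifferentiated libraries. It had the same order without overlap, with log2 changes of 1.82 (SE 0.13, adjusted p = 7.4e-07), -1.03 (SE 0.12, adjusted p = 7.8e-05) and 0.79 (SE 0.13, adjusted p = 0.0012) in the 3 comparisons in order.

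Ldha, the subunit that favours lactate production, depended on 1 library. It read 1449, 715 and 683 CPM in the undifferentiated libraries, 1418, 1383 and 1412 CPM in the differentiated libraries and 634, 810 and 851 CPM in the dedifferentiated libraries. Undifferentiated replicate 1 matched the differentiated libraries, and the other two undifferentiated libraries were near the dedifferentiated ones. The log2 change on differentiation was 0.49 (SE 0.26, adjusted p = 0.12) and did not pass the test, whereas without undifferentiated replicate 1 it was 0.96 (adjusted p = 8.4e-05). Ldha fell on dedifferentiation by a log2 change of -0.86 (SE 0.26, adjusted p = 0.019), and the adjusted p was 0.069 without dedifferentiated replicate 1. Between the outer stages it gave -0.37 (adjusted p = 0.31). Slc16a3, which encodes the lactate exporter MCT4, had 0 to 12 counts per library, at most 0.740 CPM, and was not tested.

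**Figure D2:**
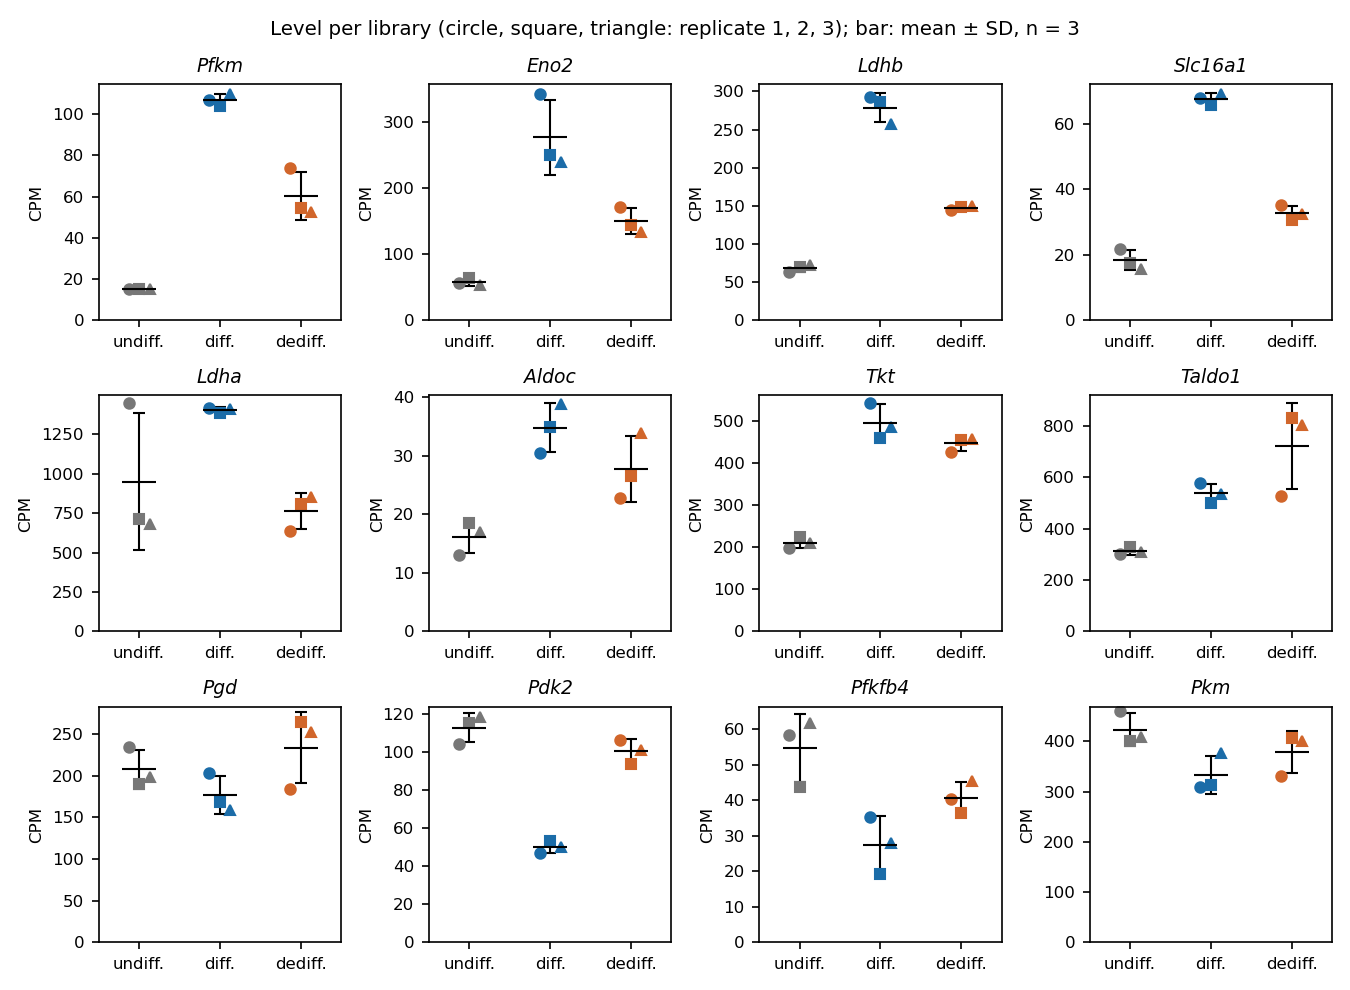
CPM (vertical axis, from 0) of 12 members in each of the 9 libraries by stage, with circles, squares and triangles for replicates 1, 2 and 3 and bars for the mean ± SD of 3 libraries. Pfkm, Eno2, Ldhb and Slc16a1 separate all 3 stages without overlap, while undifferentiated replicate 1 stands among the differentiated libraries for Ldha at 1449 CPM.

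Slc16a7, the gene of the high-affinity transporter MCT2, went the opposite way to Slc16a1. It read 9.19, 9.61 and 7.79 CPM in the undifferentiated libraries, 0.147, 0.154 and 0.185 CPM in the differentiated libraries and 3.56, 1.39 and 2.86 CPM in the dedifferentiated libraries. In the 3 differentiated libraries together it had 7 counts, and the other stages were above them in every library. Per total counts the undifferentiated level was 53.4 times the differentiated one (exact 95% counting interval 25.6 to 134). The dedifferentiated level was 16.3 times it (7.62 to 41.7). These intervals cover counting error only. The edgeR adjusted p was 1.1e-06 on differentiation and 6.7e-05 on dedifferentiation.

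Ratios of paired genes within a library do not depend on how libraries are scaled, so 12 such ratios were compared across the 3 stages by an exact permutation test of the F statistic over all 280 assignments (smallest p 0.00357), with adjustment over the 12. The log2 count ratio is not a ratio of molecules, since the gene lengths differ, but its change between stages is free of length. Pfkl to Pfkm fell from 2.03 ± 0.15 in undifferentiated to -0.60 ± 0.16 in differentiated libraries and stood at 0.17 ± 0.42 in dedifferentiated ones (exact permutation adjusted p = 0.0214). Counts thus passed from more Pfkl to more Pfkm. Aldoc to Aldoa was -5.66 ± 0.22, -4.56 ± 0.16 and -5.10 ± 0.20 in the 3 stages in order (exact permutation adjusted p = 0.0214). Those were the 2 ratios that passed whichever of the 9 libraries was left out.

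Eno2 to Eno1 was -2.29 ± 0.18, -0.94 ± 0.34 and -1.12 ± 0.29 (exact permutation adjusted p = 0.0367). Its dedifferentiated libraries, at -1.32 to -0.781, lay above the undifferentiated ones, at -2.40 to -2.09. The permutation test covers the 3 stages together, and no pair of stages was tested for a ratio. Ldhb to Ldha was -3.70 ± 0.71, -2.33 ± 0.10 and -2.36 ± 0.20 (exact permutation adjusted p = 0.0482). Its differentiated and dedifferentiated means differed by -0.03, although both genes fell between these stages. Pfkp to Pfkm (0.0357), Pfkfb4 to Pfkfb2 (0.0357), Pdk1 to Pdk2 (0.0286) and Pdk3 to Pdk2 (0.0357) also passed at the exact permutation adjusted p given for each. Left-out libraries ended the call, at exact permutation adjusted p of up to 0.0571, for Pfkp to Pfkm in 2 of 9 cases (dedifferentiated replicates 2 and 3). For Eno2 to Eno1 this held in 5 cases, up to 0.0612 (undifferentiated 2 and 3, differentiated 1, dedifferentiated 2 and 3), and for Ldhb to Ldha in 7, up to 0.0673 (all but differentiated 3 and dedifferentiated 1). For Pfkfb4 to Pfkfb2 it held in 7 cases, up to 0.161 (all but differentiated 1 and dedifferentiated 1), for Pdk1 to Pdk2 in 1, 0.0536 (dedifferentiated 3), and for Pdk3 to Pdk2 in 3, up to 0.0551 (undifferentiated 2 and 3, dedifferentiated 3). Hk2 to Hk1, Slc16a3 to Slc16a1, Pfkfb3 to Pfkfb2 and Pdk4 to Pdk2 did not pass. For Slc16a3 to Slc16a1 the exact permutation adjusted p was 0.214, 0.0321 without differentiated replicate 2 and 0.0476 with 2 added to each count. Slc16a3 had 0 to 12 counts per library, so this ratio depends on the number added.

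**Figure D3:**
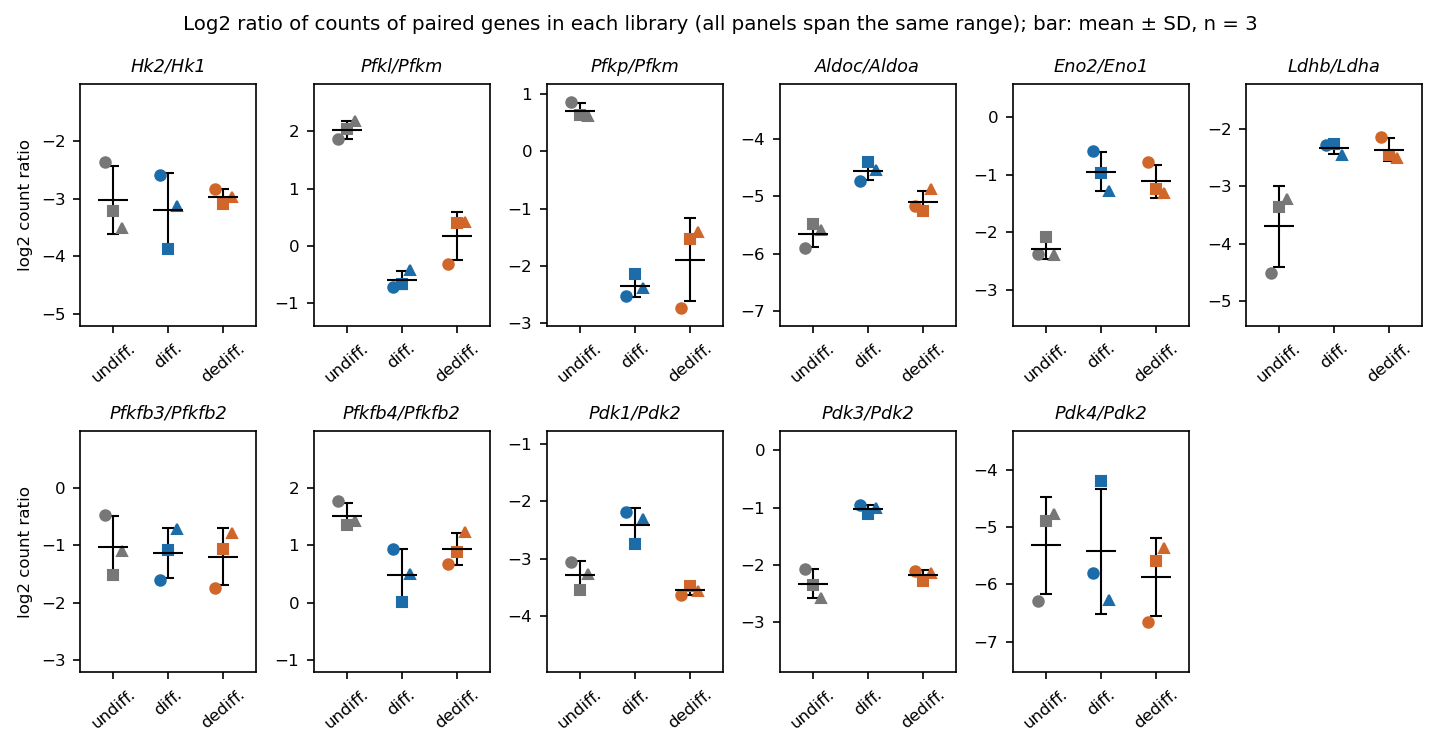
Log2 count ratio (vertical axis) of 11 gene pairs in each of the 9 libraries by stage, with circles, squares and triangles for replicates 1, 2 and 3 and bars for the mean ± SD of 3 libraries. Pfkl to Pfkm falls from 2.03 to -0.60 on differentiation, and Ldhb to Ldha and Eno2 to Eno1 rise and stay up in dedifferentiated libraries.

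The upstream sequences of the 4 members with the largest log2 changes on differentiation, and of Ldha for contrast with Ldhb, are shown because they differ in the short motifs that cyclic AMP and hypoxia factors are known to bind. The 250 bases before the RefSeq start site (assembly GRCr8) were searched on both strands for ACGTG, the core of the hypoxia response element, for TGACGTCA, the cyclic AMP response element, for its shorter form TGACG, which each TGACGTCA also holds, and for the E-box CACGTG, which also holds ACGTG. The windows lie at chr1:106507842-106508091 on the plus strand for Ldha, chr4:177177409-177177658 on the minus strand for Ldhb, chr4:159267221-159267470 on the minus strand for Eno2, chr7:131113849-131114098 on the plus strand for Pfkm and chr2:194812410-194812659 on the plus strand for Slc16a1. They are written 5′ to 3′ along the gene, with matches to any of the motifs in capitals.
Ldha: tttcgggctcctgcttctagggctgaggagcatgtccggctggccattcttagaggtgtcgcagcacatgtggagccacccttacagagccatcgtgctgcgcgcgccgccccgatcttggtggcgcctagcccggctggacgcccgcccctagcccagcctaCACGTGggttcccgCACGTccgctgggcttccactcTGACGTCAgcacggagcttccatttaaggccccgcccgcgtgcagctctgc
Ldhb: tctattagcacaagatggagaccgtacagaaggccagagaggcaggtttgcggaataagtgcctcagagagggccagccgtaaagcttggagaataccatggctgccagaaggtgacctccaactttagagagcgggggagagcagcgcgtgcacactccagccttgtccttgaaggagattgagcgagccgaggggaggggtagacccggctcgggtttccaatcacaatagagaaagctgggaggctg
Eno2: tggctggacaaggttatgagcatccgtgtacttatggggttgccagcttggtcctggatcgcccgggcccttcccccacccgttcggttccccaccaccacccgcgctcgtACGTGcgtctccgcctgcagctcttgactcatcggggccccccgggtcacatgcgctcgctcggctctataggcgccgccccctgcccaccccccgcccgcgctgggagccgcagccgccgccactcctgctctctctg
Pfkm: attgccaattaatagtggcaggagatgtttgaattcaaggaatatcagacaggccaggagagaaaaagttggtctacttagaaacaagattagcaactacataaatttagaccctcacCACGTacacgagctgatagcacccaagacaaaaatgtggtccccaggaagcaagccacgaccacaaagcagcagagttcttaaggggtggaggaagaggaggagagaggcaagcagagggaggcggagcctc
Slc16a1: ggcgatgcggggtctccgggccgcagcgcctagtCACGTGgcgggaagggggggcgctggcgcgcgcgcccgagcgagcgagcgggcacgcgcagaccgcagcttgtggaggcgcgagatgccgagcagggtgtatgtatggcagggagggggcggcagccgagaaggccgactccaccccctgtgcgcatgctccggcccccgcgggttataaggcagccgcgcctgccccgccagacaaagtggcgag
Ldha held the whole TGACGTCA and 3 ACGTG matches, a pair of them in 1 CACGTG, whereas Ldhb, the paralogue that rose by 1.96, held none of the motifs. Eno2 and Pfkm each held a single ACGTG match and Slc16a1 a CACGTG. The 33 members with a window had 37 windows in all. Of these, 15 held ACGTG (40.5%, beside 16.6% of 33469 windows of all genes), 5 held CACGTG (13.5%, beside 5.59%), 10 held TGACG (27.0%, beside 18.2%) and 1, of Ldha, held TGACGTCA (2.7%, beside 1.59%). A match describes letters only and was not set against binding.

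Downstream of pyruvate, the 4 subunit genes of the pyruvate dehydrogenase complex had log2 changes between -0.24 and 0.30 in all 3 comparisons, and the kinase gene Pdk2 moved further. Pdk2, a kinase that inactivates the complex, read 104, 116 and 118 CPM in the undifferentiated libraries, 47.2, 53.3 and 50.02 CPM in the differentiated libraries and 106, 93.7 and 101 CPM in the dedifferentiated libraries. The differentiated libraries lay below all the others, with no overlap. Pdk2 fell on differentiation (log2 change -1.23 (SE 0.08, adjusted p = 4.4e-07)) and rose on dedifferentiation (1.01 (SE 0.08, adjusted p = 4.7e-06)). Between the outer stages it gave -0.21 (adjusted p = 0.065), with an adjusted p of 0.028 without dedifferentiated replicate 1, of 0.026 by DESeq2's Wald test, of 0.037 in edgeR with DESeq2's size factors and of 0.049 with upper-quartile scaling.

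Pdk1, the kinase best known from hypoxia, averaged 11.6 ± 1.46, 9.48 ± 1.34 and 8.53 ± 0.0685 CPM. Its log2 change was -0.35 (adjusted p = 0.085) on differentiation, with an adjusted p of 0.038 without undifferentiated replicate 2. Dedifferentiated cells were below undifferentiated ones by -0.49 (adjusted p = 0.045), a call lost with adjusted p of 0.12 without undifferentiated replicate 1, 0.11 without undifferentiated replicate 3, 0.073 without dedifferentiated replicate 1, 0.09 without dedifferentiated replicate 2 and 0.12 without dedifferentiated replicate 3. Pdk3 lay between 19.2 and 25.0 CPM in all libraries and passed no test. Pdk4, the kinase induced by fasting in other tissues, read 1.29, 3.85 and 4.32 CPM in the undifferentiated libraries, 0.810, 2.86 and 0.617 CPM in the differentiated libraries and 1.02, 1.89 and 2.41 CPM in the dedifferentiated libraries. It was low and scattered, with a log2 change of -1.22 (SE 0.60, adjusted p = 0.1) on differentiation, and an adjusted p of 0.033 without undifferentiated replicate 1 and 0.011 without differentiated replicate 2.

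Of the complex itself, Pdha1, the E1 alpha subunit, fell from 153 ± 2.88 to 135 ± 9.52 CPM on differentiation (log2 change -0.24 (SE 0.08, adjusted p = 0.02)) and rose to 165 ± 11.9 CPM (0.30 (SE 0.08, adjusted p = 0.0094)). The first call was lost with an adjusted p of 0.076 without differentiated replicate 1 and of 0.08 under scaling by library size alone. Dld, the E3 subunit shared with other dehydrogenases, rose from 134 ± 13.7 to 168 ± 11.8 CPM (0.27 (SE 0.09, adjusted p = 0.024)). This call was lost with adjusted p of 0.077 without undifferentiated replicate 1, 0.072 without undifferentiated replicate 2, 0.074 without differentiated replicate 1 and 0.077 without differentiated replicate 3. Pdhb, the E1 beta subunit, at 65.1 to 93.2 CPM, and Dlat, the E2 subunit, at 48.2 to 56.1 CPM, passed no test, although Pdhb between the outer stages had an adjusted p of 0.042 when libraries were scaled by size alone. Of 9 other genes of pyruvate entry and its regulation that were tested, 3 were higher and 1 lower in differentiated than in undifferentiated libraries, 1 was higher and 1 lower in dedifferentiated than in differentiated libraries, and 3 were higher in dedifferentiated than in undifferentiated libraries. These are 44.4%, 22.2% and 33.3% of the list, beside 59.6%, 46.4% and 29.4% of all genes tested in the 3 comparisons in order. Mpc1, a subunit of the mitochondrial pyruvate carrier, rose from 32.5 ± 2.44 to 65.9 ± 11.4 CPM and kept 64.6 ± 3.51 CPM. Pc, the pyruvate carboxylase that refills the citric acid cycle, rose from 61.7 ± 1.27 to 132 ± 7.42 CPM (1.03 (adjusted p = 9.4e-06)) and fell back to 74.8 ± 10.7 CPM (-0.81 (adjusted p = 0.00011)). The phosphatase gene Pdp1, which reactivates the complex, fell on differentiation (-0.72 (adjusted p = 0.00088)) and rose on dedifferentiation (0.53 (adjusted p = 0.0084)).

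In the non-oxidative branch of the pentose phosphate pathway, Tkt and Taldo1 rose on differentiation and stayed high. Tkt, the transketolase of the branch, read 198, 224 and 211 CPM in the undifferentiated libraries, 544, 460 and 487 CPM in the differentiated libraries and 428, 455 and 459 CPM in the dedifferentiated libraries. All treated libraries were above all undifferentiated ones, and the differentiated above the dedifferentiated. Tkt rose on differentiation (log2 change 1.18 (SE 0.09, adjusted p = 1.3e-06)) and stayed high after withdrawal (-0.14 (adjusted p = 0.22) against differentiated, 1.03 (SE 0.09, adjusted p = 1.6e-05) against undifferentiated). Taldo1, the transaldolase of the same branch, read 302, 330 and 310 CPM in the undifferentiated libraries, 577, 500 and 533 CPM in the differentiated libraries and 527, 832 and 802 CPM in the dedifferentiated libraries. Every treated library exceeded every undifferentiated one, while dedifferentiated replicate 1 lay within the differentiated range. Taldo1 rose on differentiation (0.71 (SE 0.15, adjusted p = 0.0019)) and further on dedifferentiation (0.43 (SE 0.15, adjusted p = 0.035)), to 1.15 (SE 0.15, adjusted p = 0.00027) over the undifferentiated stage. The second of these calls was lost with adjusted p of 0.11 without differentiated replicate 2, 0.088 without differentiated replicate 3, 0.13 without dedifferentiated replicate 2 and 0.12 without dedifferentiated replicate 3.

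In the oxidative branch, which makes the NADPH, the member Pgd, the 6-phosphogluconate dehydrogenase, averaged 207 ± 23.5, 177 ± 23.2 and 234 ± 43.1 CPM in the 3 stages. It gave -0.29 (adjusted p = 0.12) on differentiation, with an adjusted p of 0.047 without differentiated replicate 1. It rose on dedifferentiation by 0.41 (SE 0.15, adjusted p = 0.046) with overlapping libraries, a call lost with adjusted p of 0.12 without differentiated replicate 2, 0.15 without differentiated replicate 3, 0.15 without dedifferentiated replicate 2 and 0.13 without dedifferentiated replicate 3, and also of 0.054 with the sequencing project as a covariate.

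Among 12 tested genes of the pathway outside the members, 6 were higher and 2 lower in differentiated than in undifferentiated libraries, 3 were higher and 4 lower in dedifferentiated than in differentiated libraries, and 3 were higher in dedifferentiated than in undifferentiated libraries. These are 66.7%, 58.3% and 25.0% of the list, beside 59.6%, 46.4% and 29.4% of all genes. Without undifferentiated replicate 1, 4 in place of 2 were lower on differentiation. Without differentiated replicate 2 or dedifferentiated replicate 2, 2 in place of 4 were lower on dedifferentiation. Prps2, which makes the nucleotide precursor phosphoribosyl pyrophosphate, rose from 16.4 ± 3.12 to 86.6 ± 1.12 CPM (2.34 (adjusted p = 5.6e-07)) and fell to 37.8 ± 7.86 CPM (-1.18 (adjusted p = 0.00012)). Shpk, a sedoheptulose kinase feeding the non-oxidative branch, rose from 18.8 ± 2.34 to 81.1 ± 2.65 CPM (2.05 (adjusted p = 1.7e-07)) and was 66.6 ± 9.35 CPM after withdrawal. The transketolase-like gene Tktl1 went against Tkt, falling from 23.8 ± 2.01 to 3.40 ± 2.05 CPM (-2.84 (adjusted p = 1.8e-05)) and returning to 17.0 ± 3.06 CPM (2.30 (adjusted p = 0.00017)).

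Neighbouring pathways were read from lists of genes outside the members, and for each list the share called is set beside that of all genes tested, 59.6%, 46.4% and 29.4% in the 3 comparisons in order. Of 15 citric acid cycle genes tested, 8 were higher and 1 lower in differentiated than in undifferentiated libraries, 1 was higher and 7 lower in dedifferentiated than in differentiated libraries, and 1 was higher in dedifferentiated than in undifferentiated libraries. These are 60.0%, 53.3% and 6.67% of the list. On differentiation the share called in either direction was near that of all genes, but the split by direction was not. The list had 8 of 15 higher and 1 lower, beside 31.7% higher and 27.9% lower of all genes. On dedifferentiation it had 1 higher and 7 lower, beside 23.2% higher and 23.2% lower. Between the outer stages the share called was below the 29.4% of all genes. The single call between the outer stages, Idh3a, was lost when any library but undifferentiated replicate 1 was left out, with DESeq2's size factors, by DESeq2's Wald test and without a filter. The single higher call on dedifferentiation was lost without differentiated replicate 3. Their median log2 changes were 0.27, -0.23 and 0.09. Idh3a, a subunit of isocitrate dehydrogenase, rose by 0.79 (adjusted p = 9e-06), Suclg2, of succinyl-CoA ligase, by 0.75 (adjusted p = 1.1e-05) and Mdh2, the mitochondrial malate dehydrogenase, by 0.66 (adjusted p = 5.3e-05). Suclg2 and Mdh2 both fell on dedifferentiation, with log2 changes of -0.63 (adjusted p = 8.1e-05) and -0.63 (adjusted p = 0.00015). Sdhb, a subunit of succinate dehydrogenase, went the other way on differentiation (-0.44 (adjusted p = 0.00057)).

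Of 19 further transporters and isoforms, 7 were higher and 9 lower in differentiated than in undifferentiated libraries, 9 were higher and 4 lower in dedifferentiated than in differentiated libraries, and 3 were higher and 6 lower in dedifferentiated than in undifferentiated libraries. These are 84.2%, 68.4% and 47.4% of the list. Slc2a8, an intracellular hexose transporter, rose from 15.1 ± 3.01 to 34.2 ± 0.849 CPM (1.11 (adjusted p = 3.6e-05)) and Slc2a6, a lysosomal one, from 2.07 ± 0.469 to 6.44 ± 0.188 CPM (1.56 (adjusted p = 0.00061)). Emb, a chaperone of monocarboxylate transporters, fell on dedifferentiation (-1.40 (adjusted p = 0.00028)). Eno4, the sperm-type enolase, moved against Eno1 and Eno2, from 7.36 ± 1.33 to 0.696 ± 0.235 and 4.04 ± 0.895 CPM (-3.46 (adjusted p = 6.7e-06) and 2.55 (adjusted p = 0.00014)). Its level was low.

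Of 14 glycogen genes tested, 2 were higher and 5 lower in differentiated than in undifferentiated libraries, 6 were higher and 1 lower in dedifferentiated than in differentiated libraries, and 1 was higher and 1 lower in dedifferentiated than in undifferentiated libraries. These are 50%, 50% and 14.3% of the list. Without undifferentiated replicate 3 or differentiated replicate 1, 1 in place of 2 was higher on differentiation. Without differentiated replicate 1 or dedifferentiated replicate 1, 3 in place of 6 were higher on dedifferentiation, and without differentiated replicate 2, 2 in place of 1 were lower. The lower call between the outer stages was lost without undifferentiated replicate 2 or 3 or dedifferentiated replicate 2 or 3, and 2 in place of 1 were higher without undifferentiated replicate 1. Scaling by library size alone gave 3 higher. Pygl, the liver-type glycogen phosphorylase that frees glucose 1-phosphate, rose from 0.587 ± 0.134 to 16.6 ± 2.97 CPM (4.75 (SE 0.25, adjusted p = 9.6e-08)) and fell to 4.83 ± 0.456 CPM (-1.76 (SE 0.20, adjusted p = 4.5e-05)). Gbe1, the branching enzyme, fell from 39.4 ± 1.35 to 22.1 ± 0.740 CPM (-0.90 (adjusted p = 8.5e-05)) and returned to 40.7 ± 6.78 CPM (0.89 (adjusted p = 0.00016)). Only 3 gluconeogenesis genes could be tested, of which 2 were higher on differentiation, 1 was lower on dedifferentiation and 1 was lower between the outer stages (66.7%, 33.3% and 33.3% of the list). The first count was 1 without undifferentiated replicate 2 or 3 or differentiated replicate 1, the second was 2 without differentiated replicate 2, and the last call was lost without undifferentiated replicate 1 or dedifferentiated replicate 1. Slc37a4, the glucose 6-phosphate transporter of the endoplasmic reticulum, gave 0.57 (adjusted p = 0.00022) and -0.36 (adjusted p = 0.0066) in the first pair of comparisons.

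The serine branch leaves glycolysis at 3-phosphoglycerate, and the hexosamine branch at fructose 6-phosphate. Of 10 genes of both, 5 were higher and 2 lower in differentiated than in undifferentiated libraries, 2 were higher and 5 lower in dedifferentiated than in differentiated libraries, and 1 was higher and 2 lower in dedifferentiated than in undifferentiated libraries. These are 70.0%, 70.0% and 30.0% of the list. Without differentiated replicate 1, 1 in place of 2 was lower on differentiation. Between the outer stages 1 in place of 2 was lower by library size alone and without undifferentiated replicate 1 or 3 or dedifferentiated replicate 3. Phgdh, which opens the serine branch, rose from 106 ± 8.42 to 248 ± 16.6 CPM (1.17 (adjusted p = 5.2e-05)) and fell to 118 ± 26.1 CPM (-1.06 (adjusted p = 0.00019)). Psph, its last enzyme, rose by 1.76 (adjusted p = 2.1e-07), and Shmt1, which passes serine carbon to folate, by 3.37 (adjusted p = 7.6e-06). Uap1, which ends the hexosamine branch with UDP-N-acetylglucosamine, fell from 118 ± 21.6 to 18.1 ± 1.04 CPM (-2.76 (adjusted p = 6.6e-08)) and recovered to 63.3 ± 3.00 CPM (1.82 (adjusted p = 3.4e-06)).

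Hypoxia-inducible factors and MYC are textbook activators of glycolytic genes. Of 17 hypoxia factors and response genes outside glycolysis, 6 were higher and 1 lower in differentiated than in undifferentiated libraries, 3 were higher and 5 lower in dedifferentiated than in differentiated libraries, and 4 were higher and 1 lower in dedifferentiated than in undifferentiated libraries. These are 41.2%, 47.1% and 29.4% of the list. On differentiation 2 in place of 1 were lower without undifferentiated replicate 3 or differentiated replicate 1 and with DESeq2's size factors or Wald test. The lower call between the outer stages was lost by library size alone and without undifferentiated replicate 2 or 3 or dedifferentiated replicate 3. Hif1a rose from 111 ± 5.28 to 203 ± 14.6 CPM (0.81 (adjusted p = 5.5e-06)) and fell to 124 ± 7.75 CPM (-0.70 (adjusted p = 3.4e-05)). Epas1, which encodes HIF-2α, rose from 18.6 ± 6.41 to 165 ± 54.4 CPM (3.10 (adjusted p = 4.2e-06)) and was 77.2 ± 5.77 CPM after withdrawal. Ddit4, a stress-induced inhibitor of mTORC1, read 11.4, 1.73 and 7.13 CPM in the undifferentiated libraries, 416, 217 and 352 CPM in the differentiated libraries and 25.0, 41.4 and 39.0 CPM in the dedifferentiated libraries. The differentiated libraries were far above all others, with log2 changes of 5.51 (SE 0.47, adjusted p = 3.1e-06) on differentiation and -3.22 (SE 0.41, adjusted p = 0.00011) on dedifferentiation. Ndrg1, a hypoxia response gene also known from myelinating Schwann cells, rose on dedifferentiation from 349 ± 44.2 to 1225 ± 190 CPM (1.82 (adjusted p = 2.7e-06)).

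Of 12 regulators of glucose metabolism, 4 were higher and 1 lower in differentiated than in undifferentiated libraries, 3 were higher and 1 lower in dedifferentiated than in differentiated libraries, and 3 were higher in dedifferentiated than in undifferentiated libraries. These are 41.7%, 33.3% and 25.0% of the list. Between the outer stages 1 in place of 3 was higher without undifferentiated replicate 3 or dedifferentiated replicate 2 or 3, and 1 was called lower without undifferentiated replicate 1. Myc rose from 50.7 ± 32.9 to 256 ± 79.6 CPM (2.29 (adjusted p = 0.00049)) and fell to 31.7 ± 6.33 CPM (-3.0 (adjusted p = 0.00017)). Txnip, which restrains glucose uptake, read 558, 164 and 531 CPM in the undifferentiated libraries, 502, 115 and 325 CPM in the differentiated libraries and 874, 1279.8 and 1295 CPM in the dedifferentiated libraries. All dedifferentiated libraries were above the others, and it rose on dedifferentiation by 1.88 (SE 0.52, adjusted p = 0.013). Its relative Arrdc4 fell on differentiation (-0.84 (adjusted p = 0.0089)) and rose on dedifferentiation (1.01 (adjusted p = 0.0046)). Ppard, a nuclear receptor for fatty acids, rose by 0.75 (adjusted p = 9.9e-05) and stayed up in dedifferentiated cells (0.85 (adjusted p = 0.00016) against undifferentiated).

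**Figure D4:**
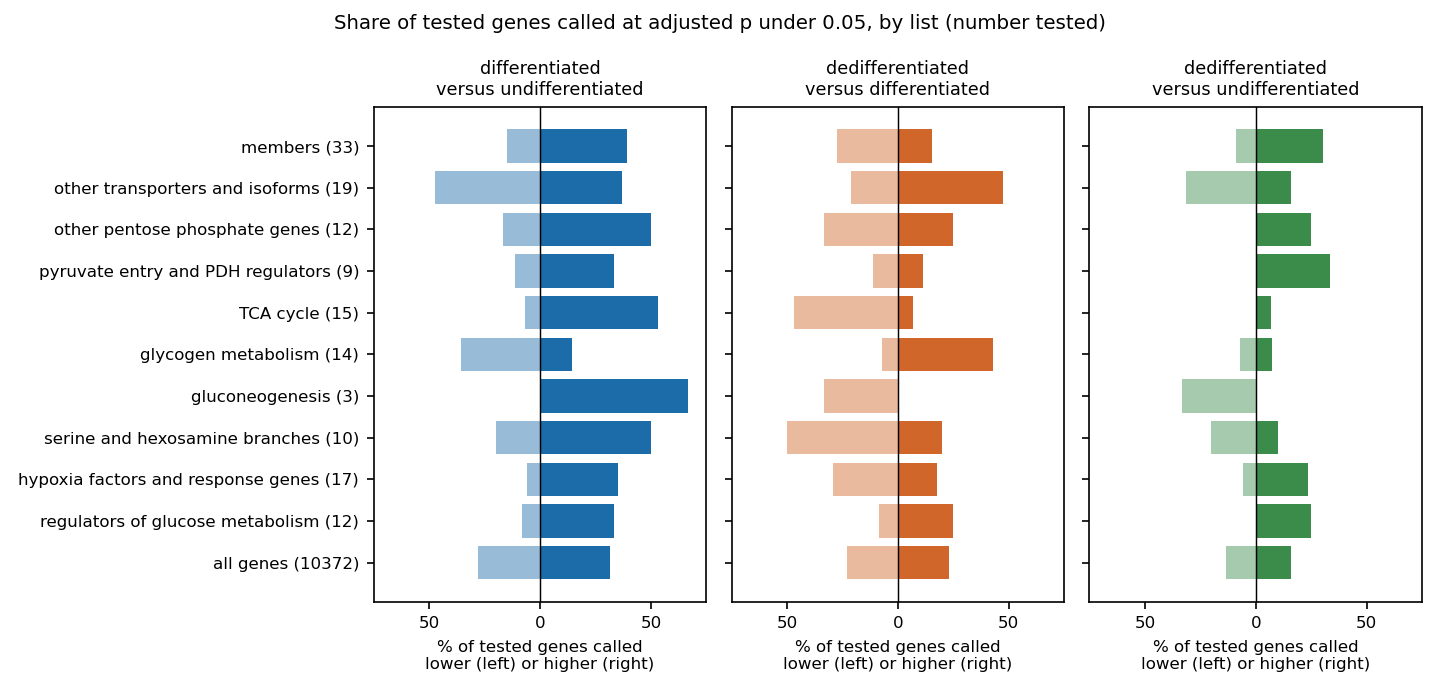
Percent of tested genes (horizontal axis) with an adjusted p under 0.05, lower to the left in pale and higher to the right in dark, for the 33 tested members, each list and all 10372 genes, one panel per comparison. The members had 13 higher and 5 lower on differentiation, the citric acid cycle list 8 higher and 1 lower, and the glycogen list 2 higher and 5 lower.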

How the data were processed

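The cell mRNA of 9 libraries was used here. The series has 27 samples, and its extracellular vesicle libraries were not used here. The authors deposited estimated counts per gene made with Salmon, per the labels. The submitters' processing notes also name Trim Galore and STAR, without their role. The genome build and annotation are not given in the sources used here. Rounding to whole numbers touched the 1.15% of these values that were not whole. The replicate endings of column names differ from the titles, so columns were matched by library code and stage, and replicate numbers are those of the titles.

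Counts were tested with edgeR 4.0.16 (R 4.3.3) by quasi-likelihood, with all 9 libraries, TMM scaling, totals over all rows as library sizes, filterByExpr with a minimum count of 10 and Benjamini-Hochberg adjustment over 10372 of 17315 genes. Genes were called at an adjusted p under 0.05. The SE is the log2 change divided by the square root of F. CPM were computed from the unscaled totals. The titles call the replicates biological without saying what was repeated, so p-values measure only the spread between these libraries, which may be partly technical. Ratios used log2 of counts plus 0.5. Both tests were tested on simulated data. Alternatives were the replicate block, other scalings, no filter, DESeq2 1.42.0, the sequencing project as a covariate, left-out libraries and, for the ratios, 2 added to each count. The members, lists and rules were chosen with earlier results of these data known. All members may be named. Values per library are given for members called with a log2 change beyond 1, and for a few others that were chosen after their values were seen. From each list, up to 3 called genes of largest change per direction and comparison may be named. RefSeq windows (GRCr8) matched 33 of 34 members. Results on 1 gene of the lists outside the members are not reported here.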

Additional observations from a re-analysis of the deposited data

How the results depend on the processing

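All alternatives were chosen with earlier results of these data known. Called members kept their direction under each alternative run. Of the results that answer a comparison, 163 values stayed on their side of the threshold or within the spread between replicates, or within 1.5 times as counts, and 16 moved. These are counts and medians over groups of genes or ratios. Of the values for single genes, lists and ratios, 3378 stayed the same. Another 203 lost a call, 24 gained one, 76 moved as counts of a list and 33 changed sign. Without replicate 3 at all stages, calls over all genes dropped to 2606 of 4809 for dedifferentiated against differentiated and to 1283 of 3045 for dedifferentiated against undifferentiated cells. The members called higher in the former were then 1, and those called lower in the latter 0 in edgeR (2 at an unadjusted p under 0.05). No ratio passed there (0 of 12), since 2 libraries per stage cannot reach the threshold in the exact permutation test. With 1 library left out, the members called higher on dedifferentiation ranged from 2 to 7, those called lower between the outer stages from 0 (4 at an unadjusted p under 0.05 in edgeR) to 2, and the ratios that passed from 2 to 8. Where a left-out library leaves 2 in a stage, the spread is that of all stages. Losses of member calls under other settings than left-out libraries, beside those named with the genes, were these: Pdk1 between the outer stages was not called without a filter, by library size alone or with the sequencing project as a covariate, and Dld was not called on differentiation without a filter. Of the other named or called list genes, Ppp1r3b lost its call on differentiation by library size alone and on dedifferentiation with the project as a covariate, and Shmt2 and Bnip3l lost theirs between the outer stages by library size alone. The causes were not tested.

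Changes of sign concerned members that passed no test in the comparison. By library size alone, the log2 change on differentiation was 0.0117 for Aldoa and 0.0308 for Dlat. Without replicate 3 at all stages it was 0.0542 for Pfkfb2 and -0.0279 for Pdk3, and on dedifferentiation 0.022 for Pfkl and -0.32 for Pdk4. With 1 library left out, the log2 changes on differentiation ranged as follows: Pfkfb2 -0.17 to 0.0743, Pfkfb3 -0.46 to 0.044, Aldoa -0.11 to 0.0216, Dlat -0.11 to 0.0353 and Pdk3 -0.0274 to 0.18. On dedifferentiation they were Slc2a1 -0.16 to 0.23, Pfkl -0.12 to 0.0398, Pfkfb3 -0.14 to 0.33, Dlat -0.0627 to 0.0067 and Pdk4 -0.0296 to 1.32. Between the outer stages they were Hk2 -0.44 to 0.31, Pfkl -0.0254 to 0.12, Pfkfb2 -0.0449 to 0.25, Pfkfb3 -0.38 to 0.11, Ldha -0.58 to 0.10, Pdha1 -0.0168 to 0.0898, Dlat -0.13 to 0.0105, Pdk3 -0.17 to 0.042 and Pgd -0.009 to 0.24.

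The titles number replicates without saying that equal numbers share a culture, and deviations from the stage means of same-numbered libraries correlated by 0.028 to 0.304 (7 of 9 pairs over 0.1), with 7 of 9 libraries closest to their own number, a hint from the data and not from the design. With the replicate number as a block, 20, 14 and 14 members were called in the 3 comparisons, beside 18, 14 and 13. The block added Slc2a1 and Pdk4 on differentiation, Aldoc on dedifferentiation and Pfkfb4 between the outer stages, and dropped Pgd on dedifferentiation. The log2 change of Slc2a1 on dedifferentiation was 0.0167 with the block. Depth limits Slc16a7, with 7 counts in the 3 differentiated libraries together, and Slc16a3, which had too few counts to be tested.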

Other observations

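Undifferentiated replicate 1 was the highest of its 3 libraries for 17 of the 33 tested members and the lowest for 13, at 2.03 times the next library for Ldha and at 38.4 against 19.9 CPM for Hk2. Its 6 cell cycle genes summed to 2.42 CPM, the lowest of the 9 libraries. Without it, 21 members were called on differentiation in place of 18. Ddit4 also differed within the undifferentiated stage, at 11.4, 1.73 and 7.13 CPM in replicates 1, 2 and 3. Differentiated replicate 2 was 3.52 times the next differentiated library for Pdk4. Txnip read 558, 164 and 531 CPM in undifferentiated and 502, 115 and 325 CPM in differentiated replicates 1, 2 and 3, so that replicate 2 was the lowest in both stages.

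Dedifferentiated replicate 1 was the lowest of its 3 libraries for 20 of the 33 members. Taldo1 read 527, 832 and 802 CPM and Pgd 184, 264 and 252 CPM in dedifferentiated replicates 1, 2 and 3, with replicate 1 the lowest both times. Of the 3 dedifferentiated libraries, that one was instead the highest for Pfkm and Eno2, at 73.8 and 172 CPM.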
